A study of Mus musculus with 51 samples.

Results

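The semaphorins, plexins, neuropilins, ephrins and Eph receptors are guidance proteins of the developing nervous system, and 44 of the 22225 protein-coding genes of the annotation were examined here as 1 group. They were listed by name, with earlier results of these data known: 19 semaphorins, 7 plexins, 2 neuropilins, 9 Eph receptors and 7 ephrins. The list does not hold the whole families, and 9 other family genes are described at the end. For each gene, H3K27ac and H3K4me1 peaks were counted if they overlapped, by at least 1 bp, the window formed by the gene body in mm9 and 10 kb on each side.

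The cells were mouse embryonic stem cells of a C57/BL-6 line that had been turned into astrogliogenic neural precursor cells (aNPC, kept with N2, EGF and FGF-2) and then into astrocytes in serum medium with LIF, collected after 1 day (early astrocytes, eA) and 5 days (late astrocytes, lA). Chromatin carrying H3K27ac, a mark of active promoters and enhancers, or H3K4me1, a mark of enhancers both active and primed, was sequenced at each stage from 2 biological replicates. The authors merged the replicates before calling peaks, so each of the 6 lists stands for 1 stage and 1 mark, no difference between stages has a replicate error, and no test between stages was possible. The read depth of the lists is unknown here. A place without a peak was therefore below a calling threshold of unknown height in reads, and fewer cells with the mark cannot be told apart from less of the mark per cell.

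Semaphorins are ligands, secreted or anchored in the membrane, that bind plexins, and secreted class 3 semaphorins mostly need a neuropilin as a partner of the plexin. Ephrins are membrane-bound ligands of the Eph receptor tyrosine kinases, with A-type ephrins held by a lipid anchor and B-type ephrins crossing the membrane. Both systems steer axons, migrating cells and tissue boundaries, and glial cells carry several of these proteins.

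The 9 sequences below are 200 bp of mm9 (plus strand) around the summits of H3K27ac peaks outside promoters that were present at 1 stage and absent at the others. They are shown because such peaks make up most of what differed between stages at these genes. For each stage, the 2 unique peaks with the highest −log10 q (the authors' significance of a peak) were taken, at most 1 per gene, and windows touching an exon of a coding gene were passed over. Those of Epha5, Ephb2 and Plxna4 were added after the counts had been seen, as the strongest peaks unique to aNPC, eA and lA, respectively, of 3 genes with large differences. Capitals mark exact matches, on either strand, to one of 7 short motifs: NFI (TTGGC), AP-1 (TGANTCA), RUNX (TGTGGT), STAT (TTCNNNGAA), Sox (ACAAAG), LIM homeobox (TAATTA) and bHLH E-box (CAGCTG). A match says only that these letters are in the window.
Sema5a, aNPC only, chr15:32493264-32493463, Sox on the opposite strand at 2 places: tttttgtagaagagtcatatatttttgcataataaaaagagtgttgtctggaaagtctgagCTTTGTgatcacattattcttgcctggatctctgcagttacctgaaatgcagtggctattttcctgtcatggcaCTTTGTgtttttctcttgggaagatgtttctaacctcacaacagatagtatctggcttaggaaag
Sema6d, aNPC only, chr2:124230163-124230362, RUNX on the opposite strand: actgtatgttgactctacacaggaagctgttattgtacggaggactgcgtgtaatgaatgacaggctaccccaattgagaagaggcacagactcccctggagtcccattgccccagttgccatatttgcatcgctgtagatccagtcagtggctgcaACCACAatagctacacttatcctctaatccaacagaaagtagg
Epha5, aNPC only, chr5:84693126-84693325, NFI on the opposite strand: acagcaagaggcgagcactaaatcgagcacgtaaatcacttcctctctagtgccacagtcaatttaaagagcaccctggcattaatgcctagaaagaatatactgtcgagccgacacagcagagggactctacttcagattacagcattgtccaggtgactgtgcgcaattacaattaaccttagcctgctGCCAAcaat
Sema3f, eA only, chr9:107611689-107611888, no match: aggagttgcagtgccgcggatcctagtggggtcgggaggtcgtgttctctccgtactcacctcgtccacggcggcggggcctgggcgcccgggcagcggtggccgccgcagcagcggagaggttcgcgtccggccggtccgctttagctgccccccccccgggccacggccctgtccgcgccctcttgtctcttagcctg
Plxna1, eA only, chr6:89301906-89302105, RUNX on the opposite strand: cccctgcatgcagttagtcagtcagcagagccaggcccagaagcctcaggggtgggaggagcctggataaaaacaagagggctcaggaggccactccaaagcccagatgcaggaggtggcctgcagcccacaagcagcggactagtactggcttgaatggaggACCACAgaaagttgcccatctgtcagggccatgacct
Ephb2, eA only, chr4:136292187-136292386, no match: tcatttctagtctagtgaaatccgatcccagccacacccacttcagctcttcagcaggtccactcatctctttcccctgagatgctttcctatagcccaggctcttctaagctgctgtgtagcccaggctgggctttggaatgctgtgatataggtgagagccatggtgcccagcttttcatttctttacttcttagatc
Sema6d, lA only, chr2:124496858-124497057, no match: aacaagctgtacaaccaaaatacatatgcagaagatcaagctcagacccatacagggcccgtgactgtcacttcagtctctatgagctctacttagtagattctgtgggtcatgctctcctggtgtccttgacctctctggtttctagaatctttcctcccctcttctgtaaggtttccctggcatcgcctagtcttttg
Plxna1, lA only, chr6:89299249-89299448, NFI on the opposite strand: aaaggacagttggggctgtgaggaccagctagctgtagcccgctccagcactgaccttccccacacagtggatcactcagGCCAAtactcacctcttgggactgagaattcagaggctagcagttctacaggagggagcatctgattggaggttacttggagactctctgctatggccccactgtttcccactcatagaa
Plxna4, lA only, chr6:32117448-32117647, E-box: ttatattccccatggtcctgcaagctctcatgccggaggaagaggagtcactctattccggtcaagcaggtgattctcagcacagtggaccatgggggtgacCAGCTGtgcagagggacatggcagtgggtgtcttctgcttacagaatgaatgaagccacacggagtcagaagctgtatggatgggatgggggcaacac

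Apart from the lA peak of Sema6d, these peaks lay inside the gene body, 1.02 kb (Sema3f) to 421.0 kb (Plxna4) from the gene's 5′ end. The lA peak of Sema6d lay past its 3′ end, 581.0 kb from its start. Their −log10 q was 43.7 at Sema5a, 29.6 at Sema6d and 22.7 at Epha5 in aNPC, which placed them at percentiles 82.3, 76.1 and 71.3 of the aNPC list. In eA the values were 15.8 at Sema3f, 12.2 at Plxna1 and 8.98 at Ephb2 (percentiles 64.3, 57.1 and 47.1). In lA they were 16.7 at Sema6d, 14.5 at Plxna1 and 12.2 at Plxna4 (percentiles 75.0, 70.9 and 65.3). These peaks were thus in the middle to upper range of their lists. H3K4me1 overlapped 8 of the 9 at some stage, and the lA peak of Sema6d had none.

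Over the 7 motifs, the shares of the genes' unique peaks with a match were mostly near those of all unique peaks of the same stage. An NFI match lay in 29.4% of the 180 aNPC-unique peaks (95% Wilson interval 23.3 to 36.5, 32.5% of all aNPC-unique peaks), 44.3% of the 79 in eA (33.9 to 55.3, all 34.8%) and 33.0% of the 112 in lA (25.0 to 42.2, all 32.8%). Over the whole lists, the NFI share was 32.3%, 33.3% and 32.4%. A STAT match lay in 12.2% in aNPC (8.21 to 17.8, all 6.23%), 2.53% in eA (0.697 to 8.77, all 6.43%) and 11.6% in lA (6.91 to 18.9, all 6.9%), against 5.82%, 6.14% and 6.15% of the whole lists. In aNPC the STAT interval lay above the share of all unique peaks, and in lA its lower bound met it. The E-box share in aNPC was 7.22%, with an interval below the 12.2% of all aNPC-unique peaks, and those in eA (15.2%, 8.91 to 24.7) and lA (16.1%, 10.4 to 24.0) had intervals that held the shares of 12.7% and 11.6%. These were 3 of 21 shares outside their interval. These intervals cover counting error over peaks, which are not replicates of a stage.

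Nearly all of the genes carried the marks at some place. In aNPC, 40 of 44 had at least 1 H3K27ac peak in the window, against 69.5% of all coding genes. In eA the number was 43 (71.7% of all genes) and in lA 42 (70.5%). H3K4me1 peaks were present at all 44 genes at each stage, against 80.0%, 81.0% and 81.4% of all coding genes. The windows of these genes were long, with a median of 65.1 kb against 35.5 kb, and the median number of H3K27ac peaks per gene was 6.0, 6.5 and 7.0 at the successive stages against 2.0 at each stage for all genes. Per 100 kb of window the medians were 6.69, 8.3 and 8.58 peaks, against 3.87, 4.64 and 4.53. Among the 25 members and 7329 genes with windows of at least 50 kb they were 5.84, 7.21 and 6.9 against 3.81, 4.64 and 4.69. The higher density of peaks at these genes was thus also seen among long genes, although the members' windows were longer (median 176.0 against 86.8 kb).

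The windows held 447 different H3K27ac peaks at the aNPC stage, and 423 and 417 in eA and lA. The lists themselves grew from 79413 to 83433 and 92700 peaks, so the share of the list at these genes went from 0.563% (0.513 to 0.617) to 0.507% (0.461 to 0.558) and 0.45% (0.409 to 0.495). For H3K4me1 the numbers were 764, 906 and 929 of 154238, 185478 and 208333 peaks, or 0.495%, 0.488% and 0.446%. Both marks had their lowest share of the list at these genes in lA.

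**Figure D1:**
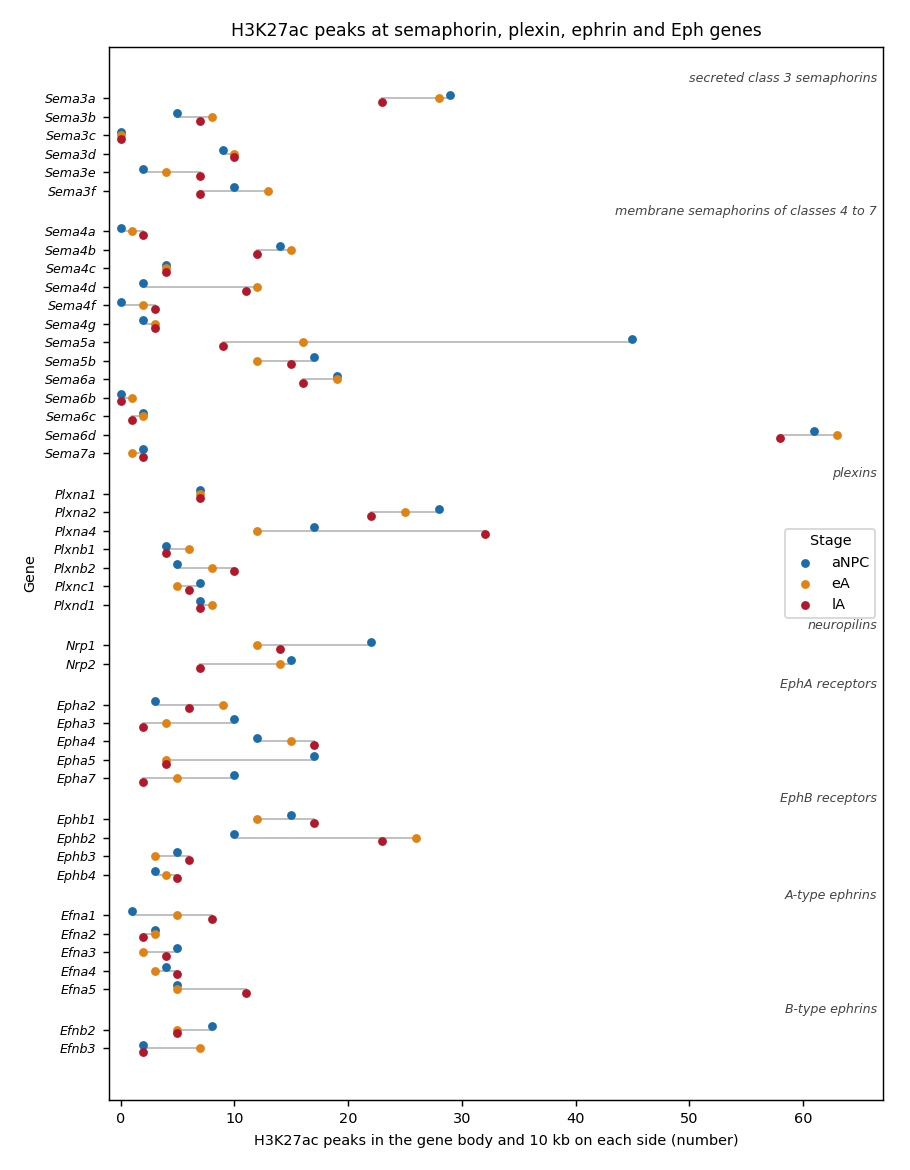
Number of H3K27ac peaks (horizontal axis) in the window of each of the 44 genes (vertical axis, grouped by role) in aNPC, eA and lA, with 1 point per stage and no error bar because each stage is 1 merged list. Sema5a went from 45 peaks in aNPC to 9 in lA, Plxna4 from 12 in eA to 32 in lA, and Sema6d held 58 to 63 at every stage.

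A gene was called higher at a later stage if it had at least 2 times as many peaks and at least 2 more, and lower in the reverse case. This is a rule of size and not a test. From aNPC to eA, 7 of the 44 genes were higher in H3K27ac (15.9%, against 12.8% of all coding genes) and 5 were lower (11.4%, against 5.42%). From eA to lA, 4 were higher (9.09%, against 5.03%) and 4 lower (9.09%, against 5.99%). From aNPC to lA, 9 were higher (20.5%, against 13.1%) and 5 lower (11.4%, against 6.79%). The 3 comparisons share their lists. Among genes with windows of at least 50 kb, 3 of the 25 members were higher from aNPC to eA (12.0%, against 17.9% of all such genes) and 4 lower (16.0%, against 8.32%). From eA to lA, 2 were higher (8.0%, against 6.86%) and 3 lower (12.0%, against 6.88%). From aNPC to lA, 4 of the 25 were higher and 5 lower, while 18.7% and 9.32% of all such genes were. These members had longer windows than all such genes (median 176.0 against 86.8 kb). The 5 genes that were lower from aNPC to lA, Sema5a, Nrp2, Epha3, Epha5 and Epha7, all had windows of this length.

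H3K4me1 peak numbers seldom passed the same rule at these genes. From aNPC to eA, 1 was higher (6.27% of all genes) and 0 were lower (1.46%). From eA to lA, 1 was higher (5.21%) and 2 were lower (2.96%). From aNPC to lA, 1 was higher (12.0%) and 1 was lower (2.66%). The gene that was higher from aNPC to eA was Sema4f (4 and 8 H3K4me1 peaks). Sema3c (1, 2 and 6 peaks, in the order of the stages) was higher in both other comparisons, and Epha7 (9, 8 and 4) was lower in both. Sema4c (8 in eA, 4 in lA) was the other lower gene from eA to lA.

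The 6 secreted class 3 semaphorins held 55, 63 and 54 H3K27ac peaks (here and hereafter in the order aNPC, eA, lA), and 1 of them passed the rule. Sema3e, which signals through Plxnd1 without a neuropilin, had 2, 4 and 7 H3K27ac peaks, and its H3K4me1 peaks numbered 12, 19 and 23. Its promoter had no H3K27ac peak in aNPC, a peak with a −log10 q of 15.4 in eA (percentile 63.7) and one of 33.0 in lA (percentile 90.2). All 4 of its lA-unique H3K27ac peaks overlapped H3K4me1 in lA, 2 of them already in eA and 0 in aNPC. The call from aNPC to lA held in 7 of 7 alternative ways of counting, and that from aNPC to eA in 6, being lost when promoter peaks were left out.

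Sema3a, a repellent of axons that acts through Nrp1 and A-type plexins, had 29, 28 and 23 H3K27ac peaks over a window of 497.0 kb, with a promoter peak at each stage. The similar numbers came from partly different places, since 14 of its 45 merged regions were aNPC only, 6 eA only and 7 lA only, and 10 were shared by all 3 stages. Sema3f, a ligand that binds Nrp2, had 10, 13 and 7 peaks and Sema3b, which also binds neuropilins, 5, 8 and 7. Sema3d had 9, 10 and 10 peaks. None of these 4 passed the rule in any comparison.

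Sema3c was the only member with 0 H3K27ac peaks at every stage. Its promoter nevertheless overlapped an H3K4me1 peak in aNPC, eA and lA, and the nearest H3K27ac peaks lay 261125, 171754 and 301252 bp from its start sites.

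Among the 13 membrane semaphorins, with 168, 151 and 136 H3K27ac peaks, Sema5a and Sema4d differed most between stages. Sema5a, a transmembrane semaphorin with thrombospondin repeats, spans chr15:32174568-32626096 on the plus strand and had 45, 16 and 9 H3K27ac peaks covering 22.7, 5.47 and 3.24 kb. Its H3K4me1 peaks numbered 47, 55 and 60 and covered 31.8, 30.8 and 32.1 kb. H3K27ac was thus lower at each later stage in number and covered bases. H3K4me1 peaks were more numerous at each later stage, but the bases they covered were nearly equal.

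Of the 51 merged H3K27ac regions of Sema5a, 31 were aNPC only, 9 were shared by aNPC and eA, 5 by all stages, 2 were eA only and 4 lA only. The 31 aNPC-unique peaks all lay in the gene body, from 1.91 to 440.0 kb from the 5′ end, and 21 of them reached a −log10 q of 5. H3K4me1 overlapped 22 of them in aNPC, and 24 and 16 in eA and lA. The promoter had an H3K27ac peak in aNPC and eA (−log10 q 10.6 and 8.91) and none in lA, and an H3K4me1 peak at each stage. The lower calls to eA and to lA held in 7 of 7 alternatives.

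Sema4d, a ligand of Plxnb1, went the other way, with 2, 12 and 11 H3K27ac peaks covering 1.02, 6.22 and 5.54 kb and 14, 14 and 18 H3K4me1 peaks. Its promoter had an H3K27ac peak only in eA (−log10 q 23.7, percentile 73.7). Of its 14 merged regions, 5 were shared by eA and lA, 4 were eA only, 3 were lA only and 2 were present throughout. Both higher calls held in 7 of 7 alternatives.

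Sema6d, a ligand of Plxna1, had more H3K27ac peaks than any other member at each stage, with 61, 63 and 58 over a window of 598.0 kb, the longest of the group. Here 18 of 92 merged regions were shared by all stages, while 24 were aNPC only, 12 eA only and 10 lA only. Sema5b (17, 12 and 15 peaks), Sema6a (19, 19 and 16), a ligand of Plxna2 and Plxna4, and Sema4b (14, 15 and 12) also passed no rule. Sema4f (0, 2 and 3) and Sema4a (0, 1 and 2) were called higher on very few peaks, and these calls held in 3 of 7 alternatives for Sema4f to eA, 6 for Sema4f to lA and 1 for Sema4a to lA. Sema4c (4 at each stage), Sema4g (2, 3 and 3), Sema6b (0, 1 and 0), Sema6c (2, 2 and 1) and Sema7a (2, 1 and 2), the last a lipid-anchored ligand of Plxnc1, held 4 or fewer.

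The 7 plexins, receptors of the semaphorins, held 75, 71 and 88 H3K27ac peaks, and the excess in lA came from Plxna4. This receptor, which works with neuropilins in the response to Sema3a, spans chr6:32094565-32538192 on the minus strand. It had 17, 12 and 32 H3K27ac peaks covering 8.82, 5.41 and 15.3 kb, and 38, 57 and 72 H3K4me1 peaks. H3K27ac was thus lowest in eA, whereas H3K4me1 was higher at each later stage. The promoter of Plxna4 held H3K27ac in aNPC and eA (−log10 q 30.6 and 16.9) but not in lA, the stage with most peaks in the gene. In lA the nearest H3K27ac peak lay 542 bp from the start site, outside the promoter as defined below.

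Of the 37 merged regions at Plxna4, 16 were lA only, 4 aNPC only and 0 eA only. H3K4me1 overlapped 4 of the 16 lA-unique peaks in aNPC, and 14 and 15 in eA and lA. These peaks spread from 2.58 kb upstream of the 5′ end to 421.0 kb downstream of it, and 9 reached a −log10 q of 5. The higher call from eA to lA held in 7 of 7 alternatives, with 12 to 21 more peaks where peaks were counted. From aNPC to lA the numbers of 17 and 32 fell short of the rule.

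Plxna2, a receptor of Sema6a, had 28, 25 and 22 H3K27ac peaks, of which 10, 5 and 4 were unique to the stage. Plxnb2, a receptor of class 4 semaphorins, had 5, 8 and 10 peaks and was called higher from aNPC to lA, a call that held in 4 of 7 alternatives. Plxna1 (7 at each stage), Plxnd1 (7, 8 and 7), Plxnc1 (7, 5 and 6) and Plxnb1 (4, 6 and 4) differed little in number. At Plxna1, however, only 2 of 15 merged regions were shared by all stages, with 5 aNPC only, 3 eA only and 3 lA only, and at Plxnd1 0 of 15 were.

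The 2 neuropilins held 37, 26 and 21 H3K27ac peaks. Nrp1, the partner of A-type plexins for Sema3a and also a receptor for VEGF, had 22, 12 and 14, and Nrp2, the partner for Sema3f, had 15, 14 and 7. Of these peaks, 14 at Nrp1 and 6 at Nrp2 were unique to aNPC. Nrp1 had more H3K4me1 peaks at later stages (24, 33 and 42) and missed the rule for H3K27ac. Nrp2 was called lower from eA to lA (3 of 7 alternatives) and from aNPC to lA (5 of 7), and its promoter had an H3K27ac peak in aNPC and eA and none in lA.

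Of the 5 EphA receptors, which mostly bind A-type ephrins, 3 were called lower from aNPC to eA and from aNPC to lA. The shares of all coding genes were 5.42% and 6.79%, and those of genes with windows of at least 50 kb 8.32% and 9.32%. Together the 5 receptors held 52, 37 and 31 H3K27ac peaks. Epha5 spans chr5:84486816-84846407 on the minus strand and had 17, 4 and 4 H3K27ac peaks covering 7.56, 3.07 and 2.37 kb. Epha7 (chr4:28740281-28894649, plus strand) had 10, 5 and 2 peaks, and Epha3 (chr16:63543364-63863984, minus strand) had 10, 4 and 2. The calls of Epha5 and Epha7 against aNPC held in 7 of 7 alternatives. Those of Epha3 held in 5 for eA and 6 for lA. All 3 genes had most of their H3K27ac peaks in aNPC.

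At Epha5, 14 of 17 merged regions were aNPC only, spread from 9.23 to 267.0 kb from the 5′ end, and 2 were shared by all stages. H3K4me1 overlapped 7 of the 14 in aNPC, and 7 and 6 in eA and lA, and the whole gene had 22, 21 and 28 H3K4me1 peaks. At Epha7, 6 of 10 regions were aNPC only, and H3K4me1 overlapped 3 of these in aNPC, and 4 and 1 in eA and lA, with 9, 8 and 4 H3K4me1 peaks in the window. The promoters of Epha5 and Epha7 kept an H3K27ac peak at every stage, whereas that of Epha3 had none in lA.

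Epha2, a receptor of Efna1, had 3, 9 and 6 H3K27ac peaks, with no promoter peak in aNPC and one in eA and lA (−log10 q 28.5 and 6.4). In aNPC, however, a peak lay 101 bp from a start site, just outside the promoter as defined below. It was called higher to eA in 6 of 7 alternatives and to lA in 3 of 7. Epha4, which binds ephrins of both types and is carried by astrocytes and neurons, had 12, 15 and 17 peaks and 34, 33 and 38 H3K4me1 peaks, and passed no rule.

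The 4 EphB receptors, which bind B-type ephrins, held 33, 45 and 51 H3K27ac peaks, and the later excess came from Ephb2. Ephb2 (chr4:136203454-136391903, minus strand) had 10, 26 and 23 H3K27ac peaks covering 3.19, 10.6 and 12.2 kb, and 31, 43 and 42 H3K4me1 peaks. Of its 32 merged regions, 0 were aNPC only, 8 eA only, 9 lA only, 7 shared by eA and lA and 7 by all stages. Every H3K27ac peak of Ephb2 in aNPC was therefore still matched at a later stage.

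The higher call of Ephb2 from aNPC to eA held in 7 of 7 alternatives, with 9 more peaks from a −log10 q of 5 upwards. That from aNPC to lA held in 4 of 7 and was lost with 5 more peaks at that threshold and with 7 more in lists of equal length. Of the stage-unique peaks of Ephb2, 3 of 8 and 1 of 9 in eA and lA reached a −log10 q of 5. H3K4me1 overlapped 4 of the 8 eA-unique peaks in aNPC and 4 in eA, and 5 and 6 of the 9 lA-unique ones.

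Ephb1 had 15, 12 and 17 H3K27ac peaks, of which 10, 2 and 7 were unique to the stage. Only 3 of its 29 merged regions were shared by all stages, so that most of its peaks differed between stages although the numbers were close. Ephb3 (5, 3 and 6) was called higher from eA to lA in 3 of 7 alternatives, and Ephb4 (3, 4 and 5) passed no rule.

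The 5 A-type ephrins, ligands of EphA receptors, held 17, 18 and 29 H3K27ac peaks. Efna1 had 1, 5 and 8, with 0, 3 and 5 of them unique to the stage, and Efna5 had 5, 5 and 11, with 7 of the 11 unique to lA. Efna1 was called higher against aNPC in 6 of 7 alternatives for eA and 5 for lA. Efna5 was called higher from eA to lA in 5 of 7 and from aNPC to lA in 4. The lA-unique peaks of Efna5 lay 188.0 to 282.0 kb from the 5′ end, and 2 of the 7 overlapped H3K4me1 in aNPC, and 3 and 4 in eA and lA. Both ligands thus had most H3K27ac peaks in lA.

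Efna3 (5, 2 and 4) and Efna4 (4, 3 and 5) are neighbours whose windows overlap, and 1 H3K27ac peak in aNPC and 1 in lA counted for both. Efna3 was called lower to eA and higher from eA to lA, in 5 and 4 of 7 alternatives. Efna2 had 3, 3 and 2 peaks. Of the 2 B-type ephrins, Efnb2, a ligand of Ephb4, had 8, 5 and 5 peaks, and Efnb3 had 2, 7 and 2, with 4 unique to eA. Efnb3 was called higher to eA and lower from eA to lA, each in 3 of 7 alternatives.

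**Figure D2:**
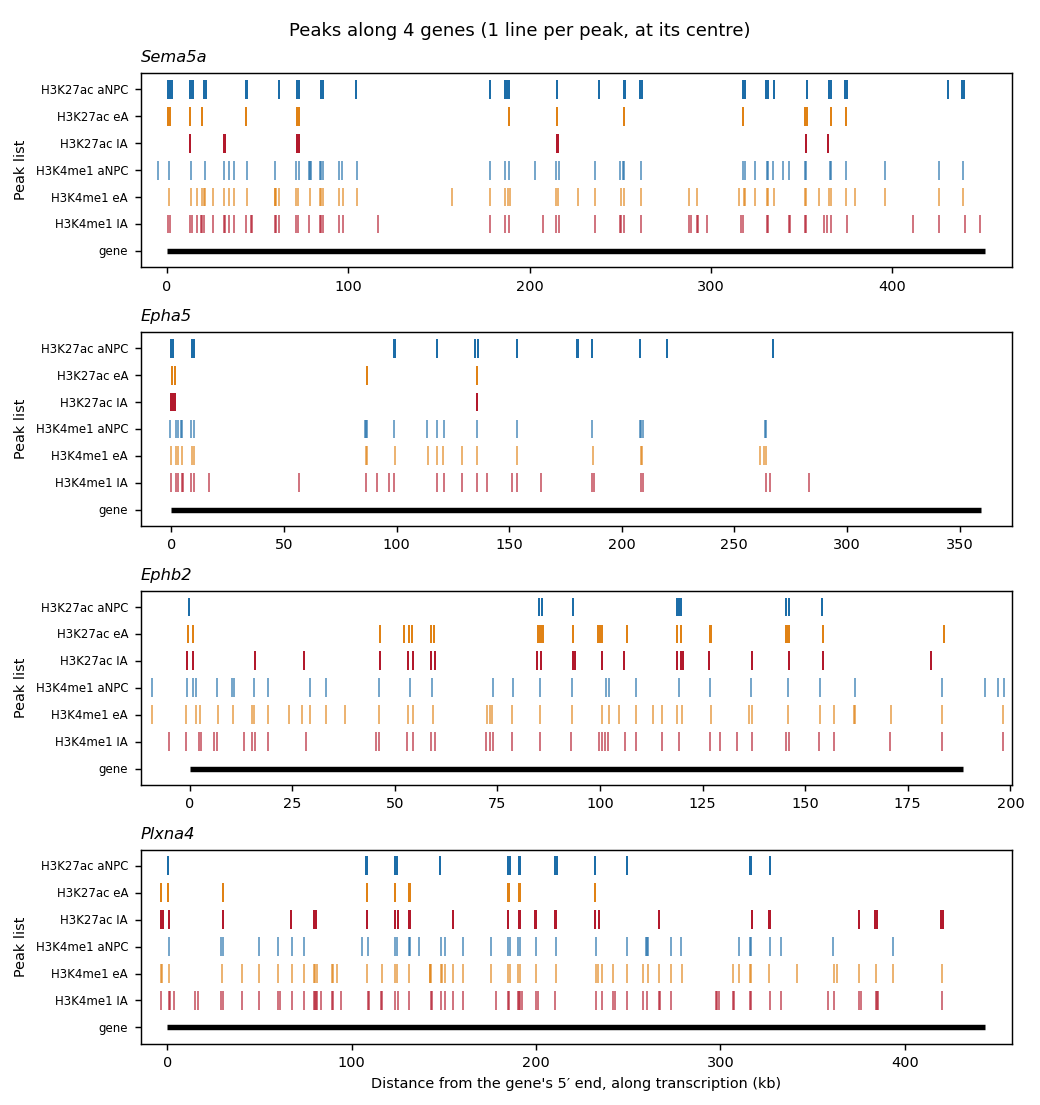
Positions of the peaks of both marks at each stage along Sema5a, Epha5, Ephb2 and Plxna4, as distance from the gene's 5′ end in kb (horizontal axis), with 1 line per peak at its centre and 1 lane per list. H3K27ac lines are most numerous in aNPC along Sema5a and Epha5 (45 and 17 peaks), in eA and lA along Ephb2 (26 and 23) and in lA along Plxna4 (32). H3K4me1 lines lie along each gene at every stage, though long stretches of Epha5 hold none.

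The marks changed in the same direction at some genes and in opposite directions at others. Plxna4, Ephb2, Efna5 and Sema3e, for example, had more peaks of both marks in lA than in aNPC. From aNPC to lA, 18 genes had more H3K27ac peaks, 18 fewer and 8 the same number, with a median difference of 0.0 and a range from -36 (Sema5a) to 15 (Plxna4). For H3K4me1, 28 genes had more peaks, 11 fewer and 5 the same number, with a median difference of 2.0 and a range from -5 to 34 (Plxna4). Over all coding genes, 34.1% had more and 22.0% fewer H3K27ac peaks in lA than in aNPC, and 46.5% had more and 20.1% fewer H3K4me1 peaks. Sema5a, Nrp1, Epha5, Sema3a, Sema6d, Plxna2, Sema6a, Efnb2 and Sema5b had fewer H3K27ac peaks and more H3K4me1 peaks in lA than in aNPC. The bases covered by H3K4me1 were nearly equal at Sema5a (31.8 kb in aNPC, 32.1 kb in lA). They were lower in lA at Plxna2 (28.8 and 26.9 kb), Sema5b (19.9 and 17.8 kb) and Efnb2 (7.03 and 6.2 kb), and higher in lA at the others.

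**Figure D3:**
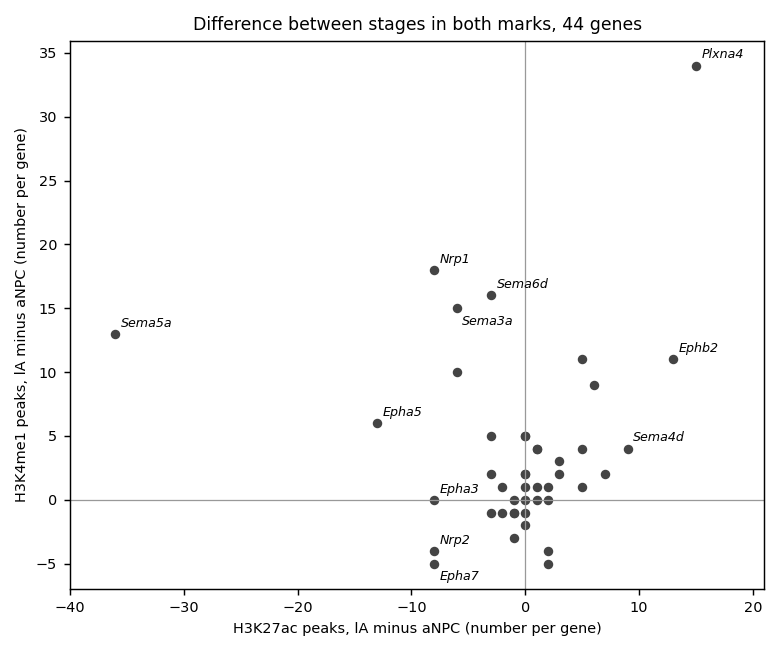
Difference in peak number between lA and aNPC for each of the 44 genes, for H3K27ac (horizontal axis) and H3K4me1 (vertical axis), with 1 point per gene (points may coincide) and names on those with large differences. Sema5a lies at -36 and 13, Plxna4 at 15 and 34, and Ephb2 at 13 and 11.

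The promoter of a gene reached from 1 kb before to 100 bp after the start site of any of its coding transcripts. In aNPC, 30 of the 44 genes had an H3K27ac peak there (50.6% of all coding genes), in eA 37 (53.2%) and in lA 25 (48.2%). For H3K4me1 the numbers were 39 (55.5%), 37 (53.6%) and 35 (52.8%). The higher number in eA was not seen when the summit had to lie inside the promoter: the H3K27ac numbers were then 22 in aNPC, and 22 and 18 in eA and lA. That rule leaves out peaks with a summit over 100 bp downstream of a start site. With promoters of 1 kb on either side, all 6 numbers of both marks stayed near those given.

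The promoters of 22 genes held H3K27ac at all stages, those of 6 at none and those of 16 at some. Sema3e, Sema4a and Epha2 had promoter peaks in eA and lA but not in aNPC. Sema4d, Sema4g, Plxnd1, Efna1 and Efnb3 had them only in eA, with −log10 q values of 23.7 (Sema4d), 26.2 (Sema4g), 12.4 (Plxnd1), 11.2 (Efna1, the stronger of 2 peaks) and 3.12 (Efnb3). Sema5a, Sema7a, Plxna4, Nrp2, Epha3, Ephb1 and Efna3 had them in aNPC and eA but not in lA, and Plxna1 only in aNPC, with a −log10 q of 2.68 at percentile 1.69 of the list. Some absences depended on where the promoter ended. The nearest H3K27ac peak lay 101 bp (Epha2), 205 bp (Sema4g) and 286 bp (Plxnd1) from a start site in aNPC. It lay 310 bp away in eA at Plxna1, and 254 bp (Sema4g), 298 bp (Ephb1) and 542 bp (Plxna4) away in lA. In the other cases it lay 896 to 137330 bp away.

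The 6 genes without a promoter H3K27ac peak at any stage were Sema3b, Sema3c, Sema3f, Sema4b, Sema4f and Sema6b. All but Sema3c had H3K27ac peaks elsewhere in the window. In eA, the nearest peaks lay 107 bp (Sema4f), 218 bp (Sema6b) and 479 bp (Sema3f) from a start site, downstream of the promoter as defined here. At Sema4b they lay 1894, 1715 and 1517 bp away in aNPC, eA and lA, and at Sema3b 2124, 2440 and 2423 bp.

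Peaks present at 1 stage only made up much of the H3K27ac at these genes in aNPC. There, 180 of 447 peaks overlapped no H3K27ac peak of eA or lA, or 40.3% (35.8 to 44.9), against 36.0% of the whole list. In eA the number was 79 of 423, or 18.7% (15.3 to 22.7), against 17.7%, and in lA 112 of 417, or 26.9% (22.8 to 31.3), against 27.7%. All 3 intervals held the share of the whole list. At least 1 unique peak lay at 26 genes in aNPC (30.6% of all genes), 28 in eA (31.9%) and 24 in lA (29.6%). Among genes with windows of at least 50 kb, this held for 84.0%, 68.0% and 72.0% of the 25 members, against 52.8%, 53.3% and 52.8% of such genes. The 2 sets are not matched for length, with median windows of 176.0 and 86.8 kb, and a longer window can hold more peaks.

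The unique peaks were concentrated in a few genes. In aNPC, 97 of the 180 lay in 5 genes, Sema5a (31), Sema6d (24), Epha5 (14), Nrp1 (14) and Sema3a (14). In eA, 35 of 79 lay in Sema6d (12), Ephb2 (8), Sema3a (6), Plxna2 (5) and a gene with 4, Efnb3. In lA, 49 of 112 lay in Plxna4 (16), Sema6d (10), Ephb2 (9), Efna5 (7) and Ephb1 (7). Without Sema5a, 149 of 402 aNPC peaks were unique (37.1%, 32.5 to 41.9), and without Plxna4, 96 of 385 lA peaks were (24.9%, 20.9 to 29.5).

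Most unique peaks lay inside gene bodies, namely 167 in aNPC, and 66 and 95 in eA and lA, and 4, 5 and 4 lay at a promoter of some coding gene. In aNPC and eA these were promoters of the guidance genes themselves, whereas in lA 0 were: 3 lay past the 3′ end of Efna1 and 1 past that of Plxnd1, at promoters of neighbouring genes. Many were weak: 102 of 180, 35 of 79 and 49 of 112 reached a −log10 q of 5. Their median widths were 284.0, 191.0 and 279.5 bp, against 381.0, 382.0 and 395.0 bp for all H3K27ac peaks at the genes.

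Overlapping peaks of the 3 stages were merged into 686 H3K27ac regions at the genes and 132992 in the genome. Regions of aNPC only made up 26.2% at the genes (23.1 to 29.7) against 21.5%, and those of aNPC and eA 8.02% (6.21 to 10.3) against 4.87%. Regions of lA only made up 16.3% (13.7 to 19.3) against 19.3%, those of all stages 23.2% (20.2 to 26.5) against 26.0%, and those of eA and lA 11.8% (9.6 to 14.4) against 13.9%. Regions of eA only (11.5%, all 11.1%) and of aNPC and lA (2.92%, all 3.3%) were close to the genome's shares. In both patterns that end before lA, aNPC only and aNPC with eA, the intervals lay above the genome's share. Without Sema5a, regions of aNPC only made up 23.5% (149 of 635, 20.3 to 26.9), an interval that held the genome's share, and those of aNPC and eA 7.24% (5.47 to 9.53), which still lay above it.

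**Figure D4:**
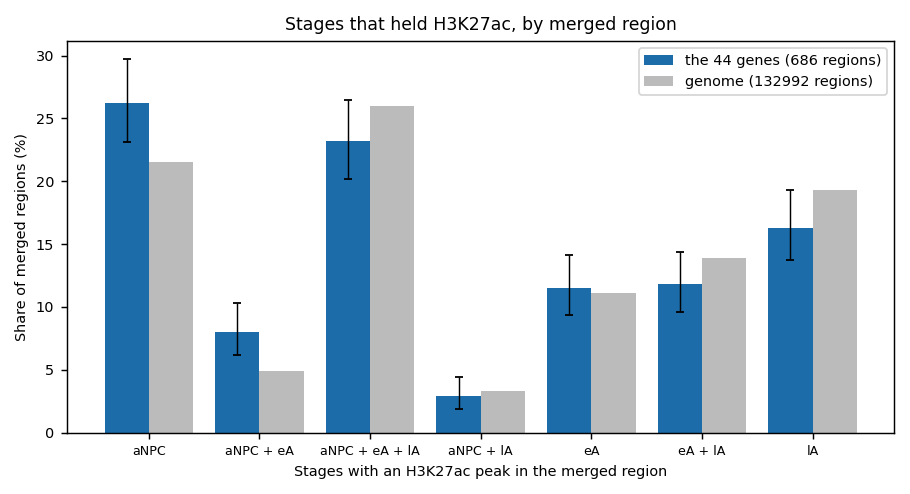
Share of merged H3K27ac regions (vertical axis, percent) by the stages that held a peak (horizontal axis), for the 686 regions of the 44 genes (blue, with 95% Wilson intervals that cover counting error only) and all 132992 regions (grey). The regions of aNPC only (26.2% against 21.5%, and 23.5% without Sema5a) and of aNPC and eA (8.02% against 4.87%) stand above the genome's share.

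The study asked whether H3K4me1 is present before H3K27ac, and the unique H3K27ac peaks of these genes allow a count of this. Of the 112 lA-unique peaks, 33.9% overlapped an H3K4me1 peak in aNPC (25.8 to 43.1), 71.4% in eA (62.5 to 79.0) and 75.9% in lA (67.2 to 82.9). Over all lA-unique peaks the shares were 30.3%, 60.5% and 73.2%. The interval of the eA share at these genes lay above the share of all lA-unique peaks. Without Plxna4 the eA share was 68.8% (66 of 96, 58.9 to 77.1), and its interval held the share of all lA-unique peaks.

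Of the 79 eA-unique peaks, 64.6% overlapped H3K4me1 in aNPC, and 68.4% and 65.8% in eA and lA, against 60.2%, 73.4% and 68.9% of all eA-unique peaks. The 180 aNPC-unique peaks overlapped H3K4me1 at 64.4% in aNPC and 65.0% in eA, and 90 of them did so in lA, against 68.5%, 63.5% and 49.6% of all aNPC-unique peaks. In lA, those 90 sites had H3K4me1 and no H3K27ac peak. At 39 aNPC-unique, 13 eA-unique and 18 lA-unique peaks, no H3K4me1 peak was found at any stage.

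**Figure D5:**
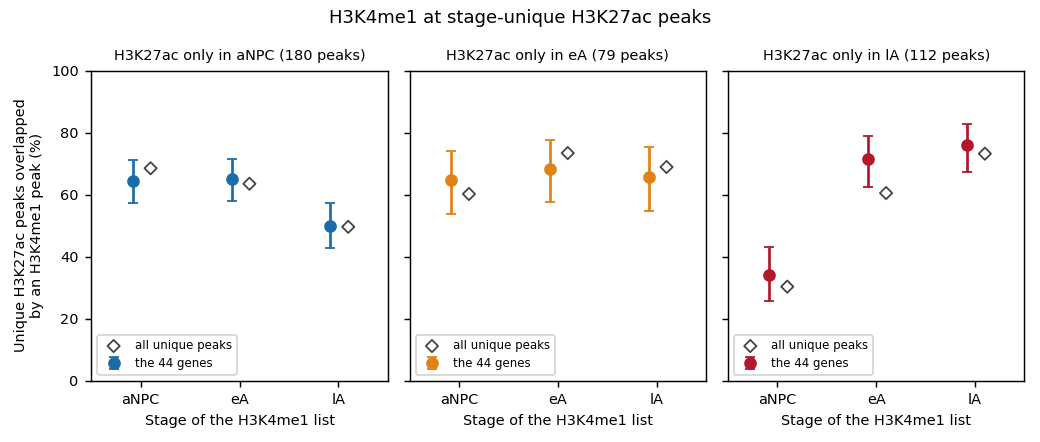
Share of stage-unique H3K27ac peaks overlapped by an H3K4me1 peak (vertical axis, percent) by the stage of the H3K4me1 list (horizontal axis), for the 44 genes (filled points with 95% Wilson intervals) and all unique peaks (open diamonds). For lA-unique peaks of the genes the share is 33.9% in aNPC, and 71.4% and 75.9% in eA and lA.

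The labelled cell types were checked at marker promoters. H3K27ac lay at 5, 5 and 6 of 8 astrocyte marker promoters in aNPC, eA and lA. Gfap, Aldoc, Slc1a2 and Slc1a3 were marked at every stage, Gja1 in eA and lA, Aqp4 only in lA and S100b only in aNPC. Aldh1l1 had no promoter peak but 17, 23 and 21 H3K27ac peaks in its window. For progenitor markers the number was 5 of 6 at each stage. Olig2 had no promoter peak but 8, 5 and 7 H3K27ac peaks in its window. For neuron markers the number was 2, 1 and 1 of the 4 that the annotation holds by name. In the windows of these 4, H3K27ac peaks numbered 0, 7 and 5 (Rbfox3), 6, 1 and 0 (Dcx), 12, 9 and 13 (Syt1) and 1, 3 and 2 (Tubb3). Oligodendrocyte marker promoters held H3K27ac at 1, 1 and 0 of 4, and those of endothelial and mural cells, microglia and pluripotent cells at 0 of 3 each. Progenitor markers were thus still marked in lA, and the part of remaining progenitors in the values above was not tested.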

How the data were processed

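H3K27ac and H3K4me1 ChIP-seq peak lists of aNPC, eA and lA were analysed, 6 lists from 12 of the 51 samples of the series. The authors aligned reads uniquely to mm9 with Bowtie, merged the 2 biological replicates of each stage and mark with SAMtools (0.1.19 in the submitters' processing notes), and called peaks with MACS2 at default settings without an input control. The deposited lists give each peak's position, its summit and the −log10 of its q-value, as the authors' peak caller computed them. The −log10 q was used to rank or filter the peaks of each list. The read depth behind each list is unknown here, so values given for different stages are not comparable in size. Where the same cut-off was applied to every list, differences in peak counts between stages can also depend on read depth. RNA-seq and knockdown samples were not used here, and 8 RNA-seq samples were left without a condition since title and description disagree.

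Genes and 46015 coding start sites came from GENCODE M1, and sequences from the NCBIM37 genome, which is mm9. All 44 symbols were found. Only the 4 or 5 mitochondrial peaks of each list were dropped. An H3K27ac peak with no overlap of at least 1 bp with the H3K27ac lists of the other stages was stage-unique. Members, gene lists and motifs were chosen with earlier results of these data known. All members entered every count. Named with values were the 10 with the largest and the 10 with the smallest difference in H3K27ac peak number per comparison, and the 5 with most unique peaks per stage. Also named were every gene with a promoter H3K27ac peak at some stages only and every gene without an H3K27ac peak. Further members were given for completeness.

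No test was run, because every stage and mark has 1 merged list. Shares carry 95% Wilson intervals, which cover counting error over peaks only. Alternatives were a −log10 q of at least 5, lists of equal length, summits in place of overlaps, flanks of 0 or 50 kb, promoters of 1 kb on either side, a distance of 1 kb for unique peaks, covered bases (at least 2 times and 1000 more), peaks outside promoters, and, chosen after seeing the data, leaving out the gene with most unique peaks of a stage, or Sema5a from the stage patterns. The counting was tested on simulated peaks with known overlaps. Python 3.11.15, NumPy 2.4.6, pandas 2.3.3, SciPy 1.17.1, pysam 0.24.0 and matplotlib 3.10.9 were used.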

Additional observations from a re-analysis of the deposited data

How the results depend on the processing

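Of 209 values of counts and shares under other settings, 163 stayed near the reported value and 46 moved. With peaks from a −log10 q of 5 upwards, the lA-unique peaks numbered 59, the lower H3K27ac calls from eA to lA 2, the lower H3K4me1 calls from eA to lA 1, and the higher and lower H3K4me1 calls from aNPC to lA 4 and 0, while H3K4me1 lay at 72.5% of aNPC-unique peaks in both aNPC and eA and at 79.6% of eA-unique peaks in eA. In lists of equal length, lA-unique peaks numbered 73, higher H3K27ac calls 2 (eA to lA) and 5 (aNPC to lA), higher H3K4me1 calls from aNPC to eA 0, and lower H3K4me1 calls 4 both from eA to lA and from aNPC to lA, and H3K4me1 lay at 67.1% of lA-unique peaks in lA. With the summit inside the window, 22 genes had promoter H3K27ac in eA. With no flank, the lower H3K27ac calls were 8 (aNPC to eA) and 9 (aNPC to lA), the higher ones from aNPC to lA 4, and the higher H3K4me1 calls 3, 2 and 4 in the 3 comparisons. With 50 kb on each side, 628 lA H3K27ac peaks lay in the windows, the H3K27ac calls were 4 higher (aNPC to eA), 2 higher and 1 lower (eA to lA) and 4 higher (aNPC to lA), and 1 gene was lower in H3K4me1 from eA to lA. Where unique peaks had to lie over 1 kb from others, they numbered 113, 39 and 67 in aNPC, eA and lA. Where the H3K27ac summit had to lie inside the H3K4me1 peak, the shares were 56.1%, 51.1% and 36.7% for aNPC-unique and 24.1%, 58.9% and 61.6% for lA-unique peaks. By covered bases, the H3K27ac calls from eA to lA were 2 higher and 0 lower, and the H3K4me1 calls 0 higher from aNPC to eA, 0 higher and 0 lower from eA to lA, and 2 higher and 0 lower from aNPC to lA. Outside promoters, 8 genes were lower from aNPC to eA and 8 higher from eA to lA. The cause of these shifts was not tested. In an alternative chosen after seeing the data, 1 gene was left out per stage. The unique peaks then numbered 149 in aNPC without Sema5a, 67 in eA without Sema6d and 96 in lA without Plxna4. No paired analysis was possible because each list merges its replicates, which also kept any replicate from being left out. A difference of a few peaks at a gene has no error, long genes can hold more peaks, 4.03% to 5.2% of the H3K27ac peaks also lay in another coding gene, and a peak inside a gene need not act on that gene.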

Other observations

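The 9 other genes of these families in the annotation were Sema3g, Plxna3, Plxnb3, Epha1, Epha6, Epha8, Epha10, Ephb6 and Efnb1. All 9 had H3K4me1 peaks in the window at every stage, and 7, 8 and 7 had one at the promoter (55.5%, 53.6% and 52.8% of all coding genes). At each stage 6 of the 9 had an H3K27ac peak in the window (69.5%, 71.7% and 70.5% of all coding genes). At the aNPC, eA and lA stages, promoter H3K27ac lay at 3, 4 and 3 of them, against 50.6%, 53.2% and 48.2% of all coding genes. Epha6 had 3 H3K27ac peaks in aNPC, all unique to that stage, and 0 in eA and lA. Sema3g, a secreted semaphorin, had 4 peaks in aNPC, 3 of them unique, and 1 at each later stage. Both were lower by the rule of size in eA and lA than in aNPC. Ephb6, with 0, 2 and 1 H3K27ac peaks, was higher from aNPC to eA, and Epha1, with 2, 1 and 3, was higher from eA to lA. Epha8 and Epha10 had 0 H3K27ac peaks at any stage, although both had H3K4me1 peaks.

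Among 35 genes that act downstream of or beside these receptors, 29, 30 and 29 had promoter H3K27ac at the successive stages, against the same shares of all coding genes. By the rule of size, 8 were higher and 1 lower from aNPC to eA (12.8% and 5.42% of all coding genes), 0 higher and 2 lower from eA to lA (5.03% and 5.99%), and 8 higher and 2 lower from aNPC to lA (13.1% and 6.79%). The collapsin response mediator genes, which relay semaphorin signals to the cytoskeleton, differed among themselves: Dpysl3 had 7, 9 and 15 H3K27ac peaks in aNPC, eA and lA, with 8 of the 15 unique to lA, Dpysl4 had 1, 6 and 8, and Dpysl5 had 17, 15 and 12. Mical3, an enzyme that acts on actin, had 6, 13 and 14 peaks and no promoter peak of either mark. These values come from 1 merged list per stage and have no replicate error.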
